A study of Mus musculus with 12 samples.

Results

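7SL, 7SK, RNase P RNA and RNase MRP RNA are short, abundant noncoding RNAs made by RNA polymerase III, and their levels were followed across 12 libraries of mouse rod photoreceptors. They were chosen by symbol for their abundance, as Rn7s1, Rn7s2, Rn7sk, Rpph1 and Rmrp, so their high level is a property of the choice and is given as a description. The 5 symbols hold 6 of 52962 gene rows. Rn7s1 and Rn7s2 both encode 7SL and held identical values in every library, so they count as 1 RNA. Rmrp has 2 rows, of which the second, a 271-base transcript lying inside the first, was listed at 0 in all 12 libraries. The other 5 rows passed the filter on low counts and entered the tests.

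The retinas had been electroporated and were taken at postnatal day 8, and 50 to 100 intact GFP-positive rods were picked by hand for each library. The shRNA mCsnk2a1 group received a short hairpin RNA against Csnk2a1, the gene of a catalytic subunit of protein kinase CK2, and the shRNA Control group received the control hairpin. The pcDNA4c mCsnk2a1 group received an expression vector named for mouse Csnk2a1, and the pcDNA4c Control group received its control. Each group had 3 independent RNA samples. The labels give neither the mouse strain, nor the promoters, nor whether the 3 samples came from separate animals, so a p-value here reflects variation among samples that may be technical. The comparison of interest is each Csnk2a1 construct against its own control, in a series whose title concerns CK2 and rod gene expression.

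7SL RNA is the scaffold of the signal recognition particle (SRP), which docks ribosomes making secreted and membrane proteins at the endoplasmic reticulum. 7SK RNA holds P-TEFb, the kinase that releases paused RNA polymerase II, in an inactive particle with HEXIM, LARP7 and MEPCE proteins. RNase P RNA is the RNA of the enzyme that trims the leader of transfer RNA precursors, and RNase MRP RNA, its relative, belongs to an enzyme that cuts the ribosomal RNA precursor. All of them lack the poly(A) tail of messenger RNAs and are read here because the kit primes total RNA.

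The sequences of 7SK, RNase P RNA and RNase MRP RNA, from GENCODE release M21 on GRCm38, are shown because the tests of these RNAs rest on reads assigned to them, and T stands for U. RNase MRP RNA is whole, and for 7SK and RNase P RNA the first 300 bases are given. Capitals mark in 7SK the GATC motifs (from bases 13, 42 and 64), a motif known from human 7SK as part of the HEXIM site, and in RNase P and RNase MRP RNA the 2 runs of 9 bases, the longest that both RNAs share.
7SK RNA (Rn7sk): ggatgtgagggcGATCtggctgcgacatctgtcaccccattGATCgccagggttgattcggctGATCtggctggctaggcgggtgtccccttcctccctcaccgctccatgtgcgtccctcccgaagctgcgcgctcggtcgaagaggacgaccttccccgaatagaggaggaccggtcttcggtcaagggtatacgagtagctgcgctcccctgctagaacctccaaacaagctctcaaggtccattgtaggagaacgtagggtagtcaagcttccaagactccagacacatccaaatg
RNase P RNA (Rpph1): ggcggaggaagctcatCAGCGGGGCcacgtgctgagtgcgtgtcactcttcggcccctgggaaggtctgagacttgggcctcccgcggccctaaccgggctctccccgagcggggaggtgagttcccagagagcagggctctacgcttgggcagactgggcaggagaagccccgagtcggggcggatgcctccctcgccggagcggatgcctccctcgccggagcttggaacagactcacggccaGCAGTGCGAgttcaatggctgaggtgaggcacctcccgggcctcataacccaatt
RNase MRP RNA (Rmrp): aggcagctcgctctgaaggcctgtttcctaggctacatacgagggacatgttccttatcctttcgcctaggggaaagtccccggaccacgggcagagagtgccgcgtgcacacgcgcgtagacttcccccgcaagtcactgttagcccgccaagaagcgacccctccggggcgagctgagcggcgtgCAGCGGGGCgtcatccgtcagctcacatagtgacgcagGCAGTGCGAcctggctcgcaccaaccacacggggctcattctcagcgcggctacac

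Each gene sits in a named neighbourhood on GRCm38. Rn7s1 lies on the plus strand, 109 bp from the ribosomal protein gene Rps29, and Rn7s2 on the minus strand of the same chromosome. The 331-base Rn7sk gene lies at chr9:78175303-78175633 on the minus strand, between genes, 281 bp from the lincRNA C920006O11Rik. Rpph1, of 319 bases, lies at chr14:50807449-50807767 on the minus strand within Ccnb1ip1, whose exons on the same strand cover 233 of its bases, and 74 bp from Parp2 on the opposite strand. Rmrp, of 281 bases, lies at chr4:43492783-43493063 on the minus strand and overlaps Ccdc107 on the opposite strand, whose exons cover 124 of its bases.

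Reads of repeated copies could be divided between genes. Of the 31-base words of 7SL, 236 of 270 also occur in 16 other annotated genes, mostly short copies. The summed counts of those genes came to between 0.0118 and 0.631% of the 7SL count in a library. Such counts come from the same assignment of reads, so they cannot show how shared reads were divided. For 7SK, 219 of 301 words occur in 25 other genes, which held 0.0410 to 0.242% of its count. For RNase P RNA, 203 of 289 words occur in 4 other genes, which held 0.103 to 0.823% of its count. No word of RNase MRP RNA occurs in another gene on the same strand. On the opposite strand 94 of its 251 words lie in Ccdc107, which never exceeded 139 estimated counts in a library, against a lowest Rmrp count of 1095. Whether counting used strand is not stated, so reads of Rmrp and Ccdc107 cannot be told apart there.

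Estimated counts per library came to 2840426 to 3567121 in shRNA mCsnk2a1 and 1608926 to 1856775 in shRNA Control, and 2296056 to 3551328 in pcDNA4c mCsnk2a1 and 1692419 to 2017623 in pcDNA4c Control. Thinned to 1609099 counts each, 16929 to 19992 genes were detected in shRNA mCsnk2a1 and 20352 to 22079 in shRNA Control, and 15338 to 18381 in pcDNA4c mCsnk2a1 and 22397 to 25243 in pcDNA4c Control. Csnk2a1 itself was at 12.0, 22.2 and 36.0 TMM-scaled counts-per-million (CPM) in shRNA mCsnk2a1, against 66.9, 57.2 and 8.51 CPM in shRNA Control. It was at 49.9, 145 and 122 CPM in pcDNA4c mCsnk2a1, against 86.6, 25.0 and 28.3 CPM in pcDNA4c Control. The groups overlapped in both comparisons, and neither difference passed the edgeR quasi-likelihood test (adjusted p = 0.905 and 0.801). All 8 rod markers, among them Nrl, were detected in every group, and their summed level was 9498 to 11850 CPM in shRNA mCsnk2a1, 4202 to 6147 in shRNA Control, 3962 to 9221 in pcDNA4c mCsnk2a1 and 4493 to 5813 in pcDNA4c Control.

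Together the 4 RNAs took up between 3.94 and 10.2% of all estimated counts of a library. Their joint share was 9.54, 9.35 and 10.2% in shRNA mCsnk2a1, against 8.19, 8.35 and 8.40% in shRNA Control. It was 5.93, 7.26 and 6.32% in pcDNA4c mCsnk2a1, against 4.44, 4.88 and 3.94% in pcDNA4c Control. In percent of counts each Csnk2a1 construct thus stood above its own control without overlap, by 1.37 and 2.08 percentage points, and both differences reached the smallest value that an exact two-sided permutation test of 3 libraries against 3 allows, p = 0.1. In percent of the TPM total the joint share was 31.7, 34.9 and 36.7% in shRNA mCsnk2a1, against 34.1, 35.3 and 33.0% in shRNA Control, and these groups overlapped (difference 0.306 percentage points, exact permutation p = 0.9). On that scale it was 22.7, 29.4 and 25.5% in pcDNA4c mCsnk2a1, against 12.0, 13.3 and 10.8% in pcDNA4c Control (difference 13.8 points, exact permutation p = 0.1).

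Compared per length, in transcripts-per-million (TPM), the order was the same in all 12 libraries, with 7SL first, then 7SK, RNase P RNA and RNase MRP RNA. The 7SL transcripts together held 20.9, 23.5 and 25.6% of the TPM total in shRNA mCsnk2a1, against 22.3, 23.3 and 21.3% in shRNA Control, and 16.6, 21.9 and 18.8% in pcDNA4c mCsnk2a1, against 6.40, 7.31 and 5.88% in pcDNA4c Control. On this scale 7SL did not separate the shRNA groups, whereas the 3 pcDNA4c Control libraries lay below all others. 7SK averaged 9.39 ± 0.207% in shRNA mCsnk2a1 and 10.2 ± 0.180% in shRNA Control, and 5.56 ± 0.686% in pcDNA4c mCsnk2a1 and 4.42 ± 0.456% in pcDNA4c Control (SD, n = 3 each). RNase P RNA averaged 1.36 ± 0.0855, 1.25 ± 0.0441, 0.971 ± 0.0391 and 0.749 ± 0.0779% in the same order of groups. RNase MRP RNA averaged 0.308 ± 0.0592, 0.340 ± 0.00859, 0.279 ± 0.0306 and 0.361 ± 0.0126%.

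**Figure D1:**
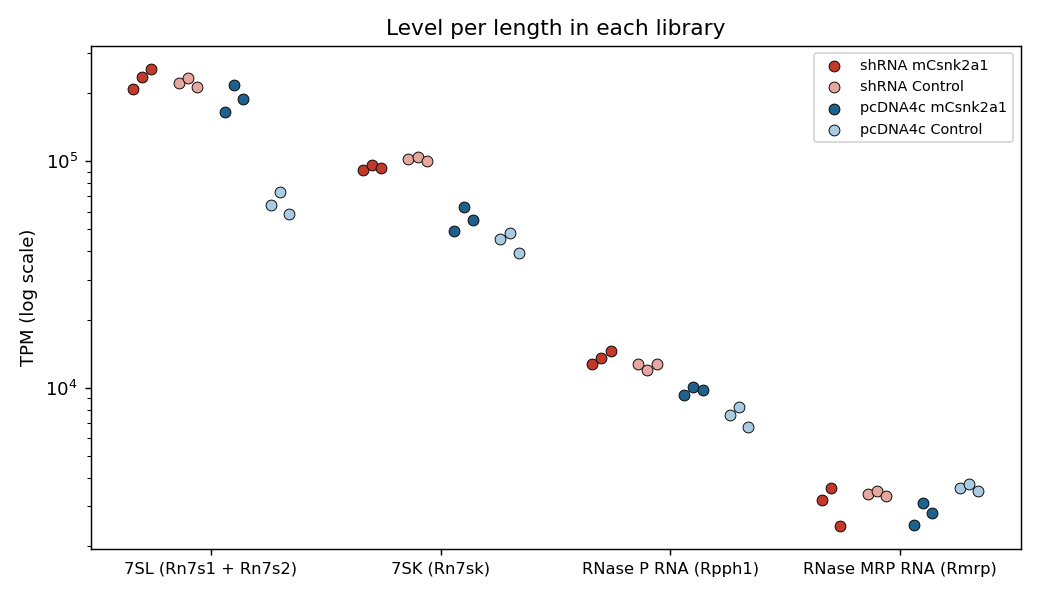
Level per length of the 4 RNAs in each library, in TPM on a log axis, with 1 point per library and colours for the 4 groups (Rn7s1 and Rn7s2 summed). 7SL lies above 7SK, RNase P RNA and RNase MRP RNA in all 12 libraries, and the 3 pcDNA4c Control points lie below the other 9 for 7SL.

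7SL was the only one of the 4 RNAs to pass the test in a Csnk2a1 comparison in the edgeR fit. Rn7s1, standing for both genes, was at 31503, 32640 and 36632 CPM in shRNA mCsnk2a1, against 24136, 24785 and 24256 CPM in shRNA Control. In the vector groups it was at 20768, 28582 and 24473 CPM in pcDNA4c mCsnk2a1, against 10804, 12308 and 9290 CPM in pcDNA4c Control. Every library with a Csnk2a1 construct stood above every library of its own control, and the 3 pcDNA4c Control libraries were the lowest of all 12.

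With the Csnk2a1 vector, 7SL rose 2.28-fold over pcDNA4c Control (log2 difference 1.19 ± 0.13 SE, n = 3 each, adjusted p = 0.000214 in the edgeR quasi-likelihood test), with the smallest p of all genes tested, tied with Rn7s2. Of 20267 genes tested 13 passed on the higher side in that comparison, Rn7s1 and Rn7s2 among them, which is 0.0641%, and 7 on the lower side, 0.0345%. A lack of overlap on the higher side, as 7SL showed, held for 3.73% of all genes. This call had been seen in these data when the RNAs were chosen. It did not pass with only the 6 libraries of the comparison, where the log2 difference was 1.23 (adjusted p = 0.226), nor with limma voom, where it was 1.39 (adjusted p = 0.97).

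With the Csnk2a1 hairpin, 7SL was 1.38-fold above shRNA Control (log2 difference 0.46 ± 0.13 SE, n = 3 each), which did not pass in edgeR (adjusted p = 0.598, unadjusted p = 0.00189). No gene passed in edgeR in that comparison, 0% of 20267, while 1688 or 8.33% had an unadjusted p under 0.05, and DESeq2 called 183 genes and limma voom 2. 7SL, 7SK and RNase P RNA did not overlap between the shRNA groups and were higher with the Csnk2a1 hairpin, as were 5.61% of all genes. Without a filter on low counts the same 7SL difference was 0.45 and passed (adjusted p = 5.01e-06), and on the depositors' scaled table it was 0.44 and passed with limma (adjusted p = 0.0151). Scaled by library size only it was 0.27 (adjusted p = 0.591), the lowest of the 23 alternatives. The difference between both construct effects, overexpression minus knockdown, was 0.73 ± 0.18 SE on the log2 scale and did not pass in edgeR (adjusted p = 0.361), a comparison in which 4 genes passed (0.0197%). It passed without pcDNA4c mCsnk2a1 1 (0.87, adjusted p = 0.0092), without a filter on low counts (0.75, adjusted p = 2.85e-09) and with limma on the scaled table (0.88, adjusted p = 0.000264). The scaled table also lacks pcDNA4c mCsnk2a1 1, so the first and last of these settings leave out the same library.

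The control constructs themselves differed for 7SL, by a log2 difference of 1.18 beside the 1.19 of the Csnk2a1 vector. shRNA Control was 2.26-fold above pcDNA4c Control (log2 difference 1.18 ± 0.13 SE, n = 3 each, edgeR adjusted p = 0.000101), where 14 genes passed (0.0691%), 3 of them higher (0.0148%). It did not pass with limma voom, at 1.16 (adjusted p = 0.999). This comparison shares the 3 pcDNA4c Control libraries with the vector comparison, so the values are set side by side and are not separate evidence. The levels of pcDNA4c mCsnk2a1, at 20768 to 28582 CPM, enclosed those of shRNA Control, at 24136 to 24785 CPM.

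**Figure D2:**
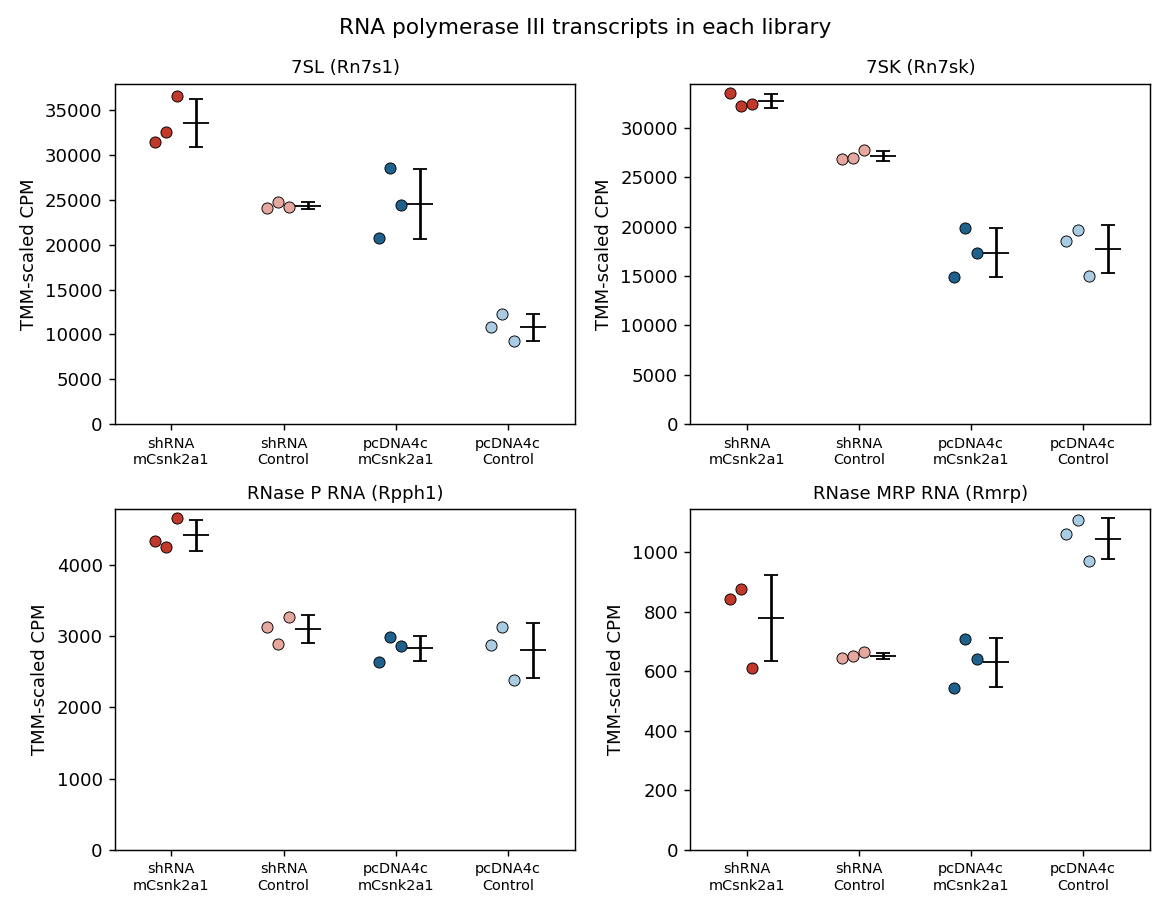
TMM-scaled CPM of Rn7s1, Rn7sk, Rpph1 and Rmrp, with 1 point per library and the mean ± SD of 3 libraries beside each group. 7SL is lowest in pcDNA4c Control, 7SK is higher in both shRNA groups than in both vector groups, and RNase MRP RNA is highest in pcDNA4c Control.

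The pcDNA4c Control libraries also stood apart in markers of microglia and macrophages, and other markers differed between some groups. The summed level of 9 microglia and macrophage markers was 1.78 to 39.4 CPM in shRNA mCsnk2a1, where C1qa, Aif1, Lyz2 and Cd68 were at 0, and 58.9 to 66.9 CPM in shRNA Control, where C1qa and Mpeg1 were at 0. It was 35.9 to 74.9 CPM in pcDNA4c mCsnk2a1, where P2ry12, C1qa, C1qb, Mpeg1 and Lyz2 were at 0, against 658 to 828 CPM in pcDNA4c Control, where all 9 were detected. Bipolar cell markers, 5 in all, summed to 606 to 1203 CPM in shRNA mCsnk2a1 and 424 to 647 in shRNA Control, and to 770 to 931 in pcDNA4c mCsnk2a1 and 324 to 387 in pcDNA4c Control, with none at 0. Müller glia markers, 4 in all, summed to 518 to 748 CPM in shRNA mCsnk2a1 and 187 to 361 in shRNA Control, and to 133 to 379 in pcDNA4c mCsnk2a1 and 97.4 to 154 in pcDNA4c Control, with none at 0. Cone markers, 5 in all, summed to 11.4 to 22.9 CPM in pcDNA4c mCsnk2a1, where Opn1sw and Opn1mw were at 0, and 52.1 to 95.9 CPM in pcDNA4c Control, where none was. In the shRNA groups they overlapped, at 39.9 to 95.4 CPM in shRNA mCsnk2a1, with none at 0, and 33.3 to 54.4 CPM in shRNA Control, with Opn1sw at 0. Ganglion cell markers, 4 in all, summed to 66.7 to 115 CPM in shRNA mCsnk2a1, where none was at 0, and 15.5 to 49.9 CPM in shRNA Control, where Slc17a6 was. In the vector groups they overlapped, at 15.7 to 84.0 CPM in pcDNA4c mCsnk2a1 and 21.6 to 57.0 CPM in pcDNA4c Control, with none at 0. Blood and vessel markers, also 4, summed to 0.336 to 7.21 CPM in pcDNA4c mCsnk2a1, where Hbb-bs and Cldn5 were at 0, and 14.8 to 29.0 CPM in pcDNA4c Control, where Cldn5 was. They overlapped at 1.23 to 31.9 CPM in shRNA mCsnk2a1 and 7.78 to 107 CPM in shRNA Control, with Hba-a1, Hbb-bs and Cldn5 at 0 in both. Rod markers, given above, were also higher in shRNA mCsnk2a1 than in shRNA Control without overlap. The part of these markers in the 7SL differences was not tested. In such pools fewer cells of a type and less RNA per cell cannot be told apart.

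7SK RNA was higher in every hairpin library than in every vector library, whichever Csnk2a1 construct or control it held, as were 28 of 20267 genes (0.138%). Rn7sk was at 33555, 32273 and 32401 CPM in shRNA mCsnk2a1, against 26823, 26909 and 27765 CPM in shRNA Control. It was at 14882, 19880 and 17310 CPM in pcDNA4c mCsnk2a1, against 18510, 19649 and 15016 CPM in pcDNA4c Control. The hairpin groups did not overlap, whereas the vector groups did.

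With the Csnk2a1 hairpin 7SK was 0.27 ± 0.12 SE higher on the log2 scale than in shRNA Control, which did not pass (edgeR adjusted p = 0.598). With the Csnk2a1 vector the log2 difference was -0.030 ± 0.12 SE (adjusted p = 1), and its sign changed with the scaling of the libraries, to 0.042 with RLE factors. shRNA Control was 0.62 ± 0.12 SE above pcDNA4c Control without overlap, as were 5.13% of all genes, and this did not pass (adjusted p = 0.0881). It did pass with RLE scaling (0.74, adjusted p = 0.00719), with library size only (0.65, adjusted p = 0.00601) and in the 6 libraries alone (0.64, adjusted p = 0.0287).

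The share of 7SK depended on the scale. In percent of estimated counts it averaged 3.02 ± 0.111 in shRNA mCsnk2a1 and 2.83 ± 0.0646 in shRNA Control, a difference of 0.183 percentage points (exact permutation p = 0.1). In percent of the TPM total, given above, the same difference was -0.851 percentage points. For the vector the difference was -0.203 percentage points of counts (exact permutation p = 0.2) and 1.13 points of TPM. So no direction independent of the scale can be given for the 7SK share in either Csnk2a1 comparison.

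RNase P RNA was higher in CPM with the Csnk2a1 hairpin in every library, without passing the test. Rpph1 was at 4332, 4247 and 4662 CPM in shRNA mCsnk2a1, against 3124, 2882 and 3272 CPM in shRNA Control, higher by 0.51 ± 0.19 SE on the log2 scale (n = 3 each, adjusted p = 0.598 in edgeR). Per length these groups overlapped, with shRNA mCsnk2a1 1 at 12736 TPM and shRNA Control 1 at 12756 TPM. Rpph1 was at 2634, 2983 and 2860 CPM in pcDNA4c mCsnk2a1, against 2874, 3132 and 2384 CPM in pcDNA4c Control, a log2 difference of 0.015 ± 0.19 SE (adjusted p = 1). The sign of that last difference changed with library size only, to -0.13, and without pcDNA4c Control 3, to -0.074. Per length Rpph1 was at 9315, 10097 and 9720 TPM in pcDNA4c mCsnk2a1, against 7541, 8235 and 6680 TPM in pcDNA4c Control. Its share of the TPM total thus differed by 0.223 percentage points (exact permutation p = 0.1), so the vector difference depended on the scale. The control constructs overlapped, at 2882 to 3272 CPM in shRNA Control and 2384 to 3132 CPM in pcDNA4c Control (log2 difference 0.15, edgeR adjusted p = 1).

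RNase MRP RNA was lower, not higher, in every library with the Csnk2a1 vector, without passing the test. Rmrp was at 844, 877 and 612 CPM in shRNA mCsnk2a1, against 643, 652 and 663 CPM in shRNA Control, and these groups overlapped because shRNA mCsnk2a1 3 lay below all 3 controls. It was at 542, 707 and 640 CPM in pcDNA4c mCsnk2a1, against 1060, 1107 and 970 CPM in pcDNA4c Control. Every Csnk2a1 vector library lay below every pcDNA4c Control library, as held on the lower side for 11.8% of all genes.

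The log2 difference of RNase MRP RNA with the vector was -0.73 ± 0.29 SE, which did not pass in edgeR (adjusted p = 0.568, unadjusted p = 0.0210), in a comparison where 8.73% of all genes had an unadjusted p under 0.05. With the hairpin it was 0.25 ± 0.29 SE (adjusted p = 0.949). shRNA Control was 0.68 lower on the log2 scale than pcDNA4c Control without overlap, as were 8.56% of all genes (difference -0.68 ± 0.29 SE, adjusted p = 1). In CPM RNase MRP RNA was therefore highest, and 7SL lowest, in the same 3 pcDNA4c Control libraries. These libraries also held the most microglia and macrophage markers, whose part was not tested. Per length, Rmrp in shRNA mCsnk2a1 2, at 3611 TPM, lay above pcDNA4c Control 1 and 3, at 3584 and 3504 TPM. Its mean was 3402 TPM in shRNA Control and 3613 TPM in pcDNA4c Control, so the ranking of RNase MRP RNA depended on the scale.

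**Figure D3:**
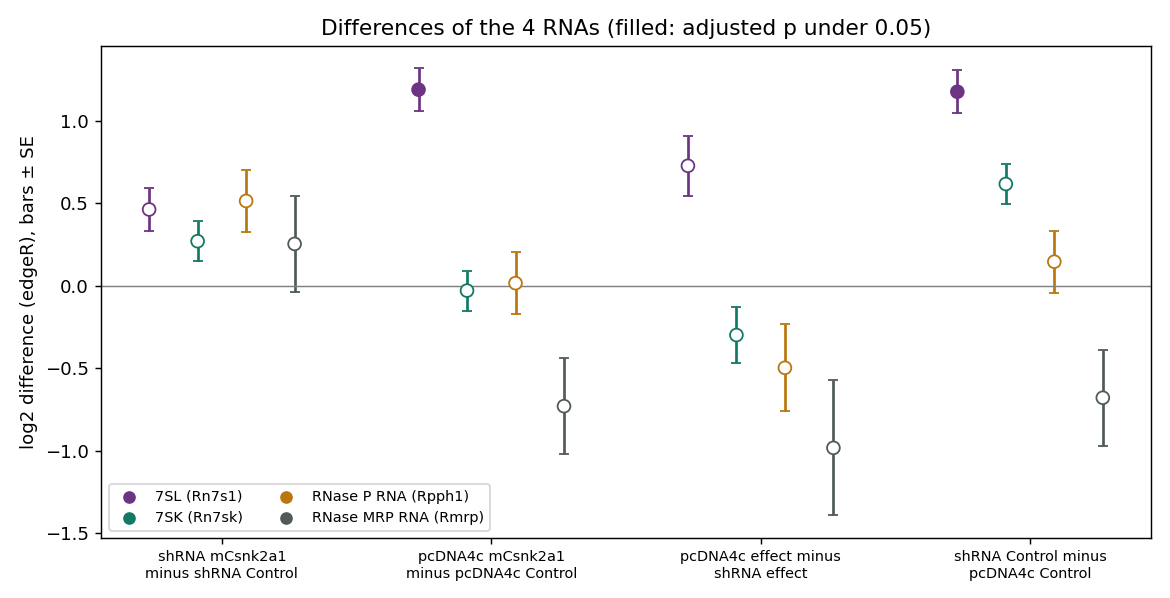
Log2 differences of the 4 RNAs in the edgeR fit over 12 libraries, with bars of 1 SE, for each Csnk2a1 construct against its control, for the difference of both effects and for the control constructs. Filled points passed at an adjusted p under 0.05, which holds for 7SL at 1.19 in the vector comparison and at 1.18 between the controls.

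Ratios of these RNAs within a library do not depend on how libraries are scaled to each other, and show unequal change only. The ratio of 7SL to 7SK counts was 1.88, 2.02 and 2.26 in shRNA mCsnk2a1, against 1.80, 1.84 and 1.75 in shRNA Control. It was 2.79, 2.88 and 2.83 in pcDNA4c mCsnk2a1, against 1.17, 1.25 and 1.24 in pcDNA4c Control. The vector groups were each tight and far apart, by 1.22 on the log2 scale, while the hairpin groups differed by 0.19. Both p-values were 0.1, the smallest the exact two-sided permutation test allows here.

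The ratio of RNase P to RNase MRP RNA counts was 4.86, 4.22 and 4.47 in pcDNA4c mCsnk2a1, against 2.71, 2.83 and 2.46 in pcDNA4c Control, a log2 difference of 0.76 (exact permutation p = 0.1). It was 5.13, 4.84 and 7.62 in shRNA mCsnk2a1, against 4.86, 4.42 and 4.94 in shRNA Control (log2 difference 0.28, exact permutation p = 0.3), and the highest value came from shRNA mCsnk2a1 3. 7SL to RNase P RNA differed by 1.16 on the log2 scale between the vector groups and by -0.055 between the hairpin groups (exact permutation p = 0.1 and 0.5). 7SK to RNase P RNA differed by -0.053 and -0.24 in the same comparisons (exact permutation p = 0.5 and 0.1). Thus the ratios of 7SL to 7SK and to RNase P RNA did not overlap between the vector groups, whereas that of 7SK to RNase P RNA did. shRNA Control and pcDNA4c Control did not overlap in any of these ratios. From the latter to the former the log2 difference was 0.56 for 7SL to 7SK and 1.03 for 7SL to RNase P RNA. It was 0.47 for 7SK to RNase P RNA and 0.83 for RNase P to RNase MRP RNA (each exact permutation p = 0.1). The pcDNA4c Control libraries are shared with the vector comparison.

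Mitochondrial ribosomal RNA, the other very abundant class in these libraries, gave an outside measure. mt-Rnr1, the 12S RNA, rose with the Csnk2a1 vector by 0.88 on the log2 scale (edgeR adjusted p = 0.0035) and stood at 28576, 38510 and 42617 CPM in pcDNA4c mCsnk2a1, against 20517, 21582 and 17626 CPM in pcDNA4c Control. With the hairpin its log2 difference was 0.67, which did not pass (edgeR adjusted p = 0.352). Like 7SL it also passed between the control constructs, at 32988, 33306 and 36211 CPM in shRNA Control against those pcDNA4c Control values (log2 difference 0.78, edgeR adjusted p = 0.0096). The count ratio of 7SL to mt-Rnr1 was 1.45, 1.48 and 1.15 in pcDNA4c mCsnk2a1, against 1.05, 1.14 and 1.05 in pcDNA4c Control, higher by 0.32 on the log2 scale. It was 1.21, 1.25 and 1.25 in shRNA mCsnk2a1, against 1.46, 1.49 and 1.34 in shRNA Control, a log2 difference of -0.21. Neither pair of groups overlapped, and both exact permutation p-values were 0.1. This ratio was also 0.40 higher on the log2 scale in shRNA Control than in pcDNA4c Control, without overlap (exact permutation p = 0.1).

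The rRNA yardstick depended on which gene was used. Against mt-Rnr2, the 16S RNA, the 7SL log2 ratio differed by 0.92 between the vector groups (exact permutation p = 0.1) and by -0.010 between the hairpin groups (exact permutation p = 1). The ratio of mt-Rnr1 to mt-Rnr2 was itself 0.634, 0.635 and 0.634 in pcDNA4c mCsnk2a1, against 0.422, 0.418 and 0.422 in pcDNA4c Control, both RNAs being cut from the same precursor. In the hairpin groups it was 0.920, 1.20 and 1.30 in shRNA mCsnk2a1, against 0.917, 0.991 and 1.05 in shRNA Control. On the log2 scale it differed by 0.59 between the vector groups and by 1.23 between shRNA Control and pcDNA4c Control. Between those controls the 7SL to mt-Rnr2 log2 ratio differed by 1.63. None of these overlapped (each exact permutation p = 0.1). Mitochondrial genes as a whole held 9.54 to 12.8% of counts in pcDNA4c mCsnk2a1, against 7.31 to 8.64% in pcDNA4c Control. They held 10.1 to 11.4% in shRNA mCsnk2a1, against 8.26 to 8.69% in shRNA Control, and their part in the 7SL differences was not tested.

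**Figure D4:**
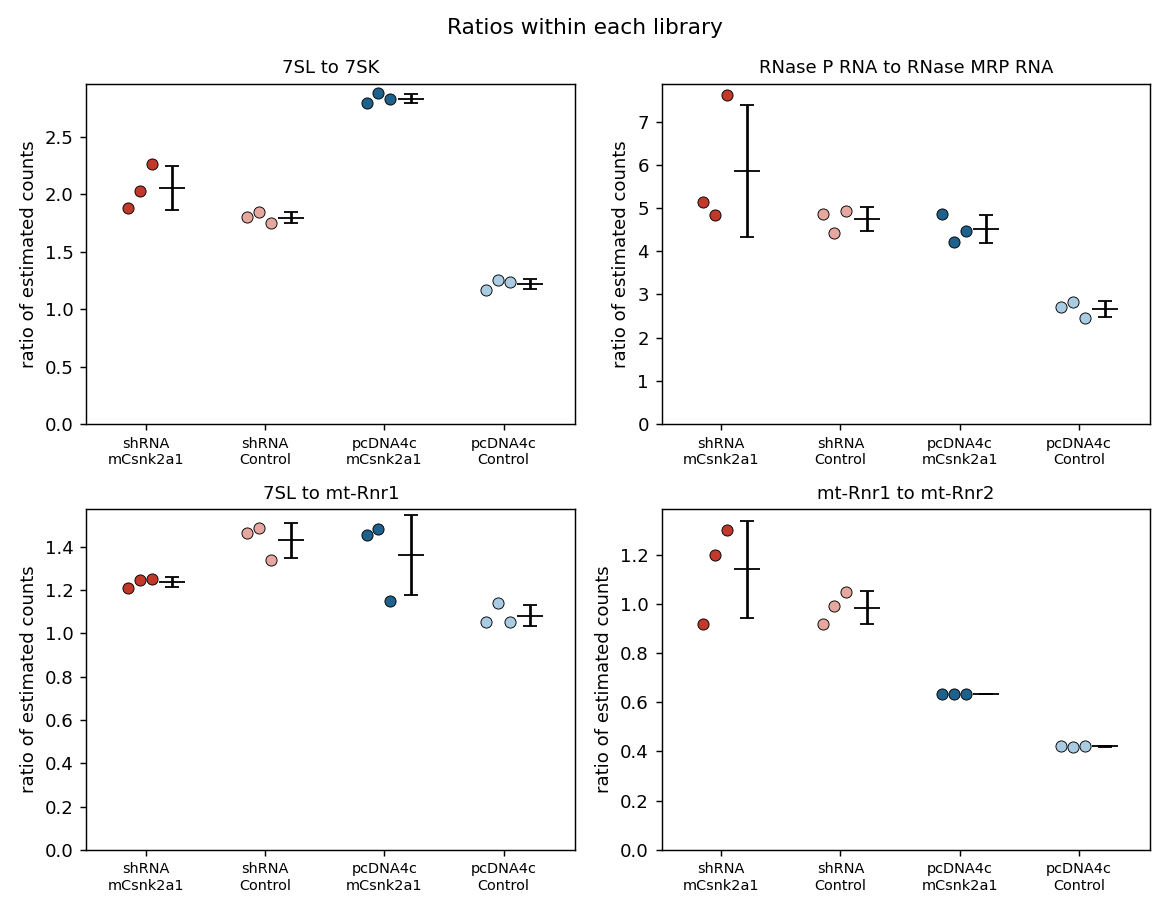
Count ratios within each library, with 1 point per library and the mean ± SD of 3 libraries beside each group, for 7SL to 7SK, RNase P to RNase MRP RNA, 7SL to mt-Rnr1 and mt-Rnr1 to mt-Rnr2. The 7SL to 7SK ratio lies between 2.79 and 2.88 in pcDNA4c mCsnk2a1 and between 1.17 and 1.25 in pcDNA4c Control.

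No gene of the protein partners of these RNAs passed in edgeR in any comparison. All 10 SRP protein and receptor genes were tested. An unadjusted edgeR p under 0.05 held for 0 with the hairpin and 2 with the vector, beside 8.33% and 8.73% of all genes. The median log2 difference was 0.39 for the hairpin and -0.11 for the vector, beside -0.028 and -0.16 over all genes. Srp19, which prepares 7SL for SRP54 binding, was at 78.3, 84.6 and 77.5 CPM in pcDNA4c mCsnk2a1, against 27.5, 9.50 and 7.76 CPM in pcDNA4c Control (log2 difference 2.42, edgeR adjusted p = 0.568). Srp54b, a copy of the gene for the GTPase that binds signal peptides, was at 2.62, 0 and 0 CPM in pcDNA4c mCsnk2a1, against 28.0, 51.5 and 23.3 CPM in pcDNA4c Control (adjusted p = 0.568). Reads of Srp54a, Srp54b and Srp54c, which are near-identical copies, may have been divided between them. Srp72, a further SRP protein, differed by 1.09 with the hairpin (adjusted p = 0.793).

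All 7 genes of the 7SK particle and P-TEFb were tested and none passed in edgeR. With either construct 0 had an unadjusted p under 0.05, beside 8.33% of all genes with the hairpin and 8.73% with the vector. Medians were 0.35 for the hairpin and 0.32 for the vector, beside -0.028 and -0.16 over all genes. Ccnt1, a cyclin partner of Cdk9, differed by 1.08 with the hairpin and by 1.10 with the vector (edgeR adjusted p = 0.661 and 0.614). Hexim1, the inhibitor that binds 7SK, differed by 1.21 with the hairpin and by 0.90 with the vector (adjusted p = 0.870 and 0.941), and its paralogue Hexim2 by 1.58 and 3.24 (adjusted p = 0.980 and 0.770). These messages were few, with Hexim1 at a mean of 41.0 CPM in shRNA mCsnk2a1 and 17.7 CPM in shRNA Control. Hexim2 was near the floor, at 5.25, 0 and 10.7 CPM in pcDNA4c mCsnk2a1, against 0, 1.00 and 0.554 CPM in pcDNA4c Control.

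Of 11 RNase P and MRP protein genes 8 were tested and none passed in edgeR. With either construct 0 of them had an unadjusted p under 0.05, beside 8.33% of all genes with the hairpin and 8.73% with the vector. All 8 had a negative log2 difference with the vector, with a median of -0.93 beside -0.16 over all genes, while 5 were positive and 3 negative with the hairpin, with a median of 0.59. Leaving out shRNA mCsnk2a1 3 moved the hairpin median to -0.10. Named by the smallest p, Pop1 and Rpp14 had log2 differences of -3.69 and -2.60 with the vector and Pop4 and Rpp40 had 2.43 and -3.13 with the hairpin, at edgeR adjusted p between 0.733 and 0.855. Their levels varied widely, as for Pop1, the large shared subunit, at 1.58 ± 1.53 CPM in pcDNA4c mCsnk2a1 and 20.9 ± 36.1 CPM in pcDNA4c Control (SD, n = 3 each).

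No subunit gene of RNA polymerase III passed either. Of 18 such genes 17 were tested. In edgeR 1 had an unadjusted p under 0.05 with the hairpin and 0 with the vector, beside 8.33% and 8.73% of all genes. The medians were 0.077 for the hairpin and 0.18 for the vector, beside -0.028 and -0.16 over all genes. Polr3gl, a subunit with a paralogue in Polr3g, was at 43.2, 67.1 and 30.0 CPM in shRNA mCsnk2a1, against 3.63, 1.79 and 1.70 CPM in shRNA Control (log2 difference 4.27, edgeR unadjusted p = 0.000985, adjusted p = 0.598). It did not overlap there, as held on the higher side for 5.61% of all genes. With the vector it stood at 56.0, 49.2 and 22.8 CPM in pcDNA4c mCsnk2a1, against 21.6, 35.5 and 43.2 CPM in pcDNA4c Control, where it overlapped. Polr3d differed by 1.92 with the hairpin and Polr2f by -3.25 with the vector (edgeR adjusted p = 0.839 and 0.698).

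Of 20 initiation, repressor and chaperone genes of polymerase III none passed in edgeR. An unadjusted p under 0.05 held for 3 with the hairpin and 2 with the vector, beside 8.33% and 8.73% of all genes. The medians were 0.23 and 0.50, beside -0.028 and -0.16 over all genes. Tbp, the TATA-binding protein shared by all 3 nuclear polymerases, was at 171, 122 and 119 CPM in shRNA mCsnk2a1, against 42.5, 32.2 and 70.3 CPM in shRNA Control (log2 difference 1.50, edgeR adjusted p = 0.598). It was at 59.5, 205 and 124 CPM in pcDNA4c mCsnk2a1, against 47.7, 29.5 and 54.8 CPM in pcDNA4c Control (log2 difference 1.56, adjusted p = 0.568). Neither pair of groups overlapped, as held on the higher side for 5.61% of all genes with the hairpin and 3.73% with the vector. Gtf3c3, of the TFIIIC complex, was at 27.8, 115 and 263 CPM in shRNA mCsnk2a1, against 17.6, 22.6 and 7.37 CPM in shRNA Control (log2 difference 3.09, edgeR adjusted p = 0.598). Gtf3c4, of the same complex, was at 33.1, 39.7 and 463 CPM in shRNA mCsnk2a1, against 36.3, 18.5 and 7.37 CPM in shRNA Control (log2 difference 3.10, adjusted p = 0.598), where the groups overlapped and shRNA mCsnk2a1 3 alone was far above the rest. Snapc2, of the complex that starts 7SK and small nuclear RNA genes, was listed at 0 in all 3 pcDNA4c mCsnk2a1 libraries. It was at 1.97, 9.50 and 6.09 CPM in pcDNA4c Control (edgeR adjusted p = 0.568). It was also at 0 in shRNA mCsnk2a1 3, shRNA Control 2 and shRNA Control 3.

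Other short RNAs were read in the same libraries. Of 190 genes of other polymerase III RNAs, 96 were at 0 everywhere and 40 were tested, of which 35 are 5S ribosomal RNA genes with only 8 distinct rows of values. Among the 13 distinct rows, 10 were positive and 3 negative with the hairpin (median 0.67), 4 positive and 9 negative with the vector (median -0.82). None passed in edgeR. Of the 40, 1 had an unadjusted p under 0.05 with the hairpin and 0 with the vector, beside 8.33% and 8.73% of all genes. The Y RNA gene Rny3 was at 1519, 1820 and 1848 CPM in shRNA mCsnk2a1, against 1100, 921 and 1247 CPM in shRNA Control (log2 difference 0.67, edgeR adjusted p = 0.598). It was at 708, 939 and 1299 CPM in pcDNA4c mCsnk2a1, against 1281, 1332 and 1241 CPM in pcDNA4c Control (log2 difference -0.39, adjusted p = 0.764). The 5S genes n-R5s100 and n-R5s124, which hold equal values, were at 103, 136 and 162 CPM in pcDNA4c mCsnk2a1, against 235, 239 and 232 CPM in pcDNA4c Control (log2 difference -0.82, adjusted p = 0.614). They were at 102, 79.8 and 124 CPM in shRNA Control, a log2 difference of -1.21 from pcDNA4c Control (adjusted p = 1).

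Small nuclear and nucleolar RNAs, mostly polymerase II products, were mostly positive with the hairpin and mostly negative with the vector. Of 83 tested, with 78 distinct rows of values, none passed in edgeR. An unadjusted edgeR p under 0.05 held for 2 with the hairpin, beside 8.33% of all genes, and for 8 with the vector, beside 8.73%. With the hairpin 67 were positive and 16 negative (median 0.62), or 63 and 15 of the distinct rows. With the vector 11 were positive and 72 negative (median -1.46 beside -0.16 over all genes), or 10 and 68 of the distinct rows. With at least 50 counts in 3 libraries the vector median was -0.72. For shRNA Control against pcDNA4c Control 10 were positive and 73 negative, with a median of -1.64, in a comparison that shares the pcDNA4c Control libraries with that of the vector. The U2 gene Rnu2-10 was at 297, 419 and 380 CPM in pcDNA4c mCsnk2a1, against 843, 822 and 638 CPM in pcDNA4c Control (log2 difference -1.07, edgeR adjusted p = 0.540). It did not overlap there, as held on the lower side for 11.8% of all genes. It was at 614, 596 and 469 CPM in shRNA mCsnk2a1, against 317, 321 and 360 CPM in shRNA Control (log2 difference 0.75, adjusted p = 0.598), and shRNA Control differed from pcDNA4c Control by -1.21 (adjusted p = 0.724). Rnu1a1, for U1, differed by -0.79 with the vector, 0.75 with the hairpin and -0.80 between the controls (adjusted p = 0.568, 0.598 and 1). Snora16a averaged 0.146 CPM in pcDNA4c mCsnk2a1 and 21.3 CPM in pcDNA4c Control.

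Among long nuclear RNAs, Malat1, a nuclear speckle RNA, was at 3623, 6646 and 6958 CPM in pcDNA4c mCsnk2a1, against 13948, 13758 and 7988 CPM in pcDNA4c Control (log2 difference -1.05, edgeR adjusted p = 0.296), and shRNA Control differed from pcDNA4c Control by -0.95 (adjusted p = 0.724). Of the 5 tested none passed in edgeR. An unadjusted p under 0.05 held for 2 with the hairpin and 1 with the vector, beside 8.33% and 8.73% of all genes. Their median was -0.63 for the vector and 0.81 for the hairpin, beside -0.16 and -0.028 over all genes. Meg3 differed by 1.94 with the hairpin and Miat by 2.01 with the vector (adjusted p = 0.598 and 0.569). The ribosomal RNA related gene Gm26917 passed in the vector comparison, at 662, 1035 and 1161 CPM in pcDNA4c mCsnk2a1, against 8519, 3920 and 3120 CPM in pcDNA4c Control (log2 difference -2.44, adjusted p = 0.00376). It was at 1055, 1463 and 739 CPM in shRNA mCsnk2a1, against 690, 735 and 865 CPM in shRNA Control, so the pcDNA4c Control libraries lay above the other 9. It also passed in edgeR between shRNA Control and pcDNA4c Control (log2 difference -2.76, adjusted p = 0.0012) and for overexpression minus knockdown (-2.95, adjusted p = 0.0446). mt-Rnr2 differed by 0.28 in the vector comparison (edgeR adjusted p = 0.568).

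**Figure D5:**
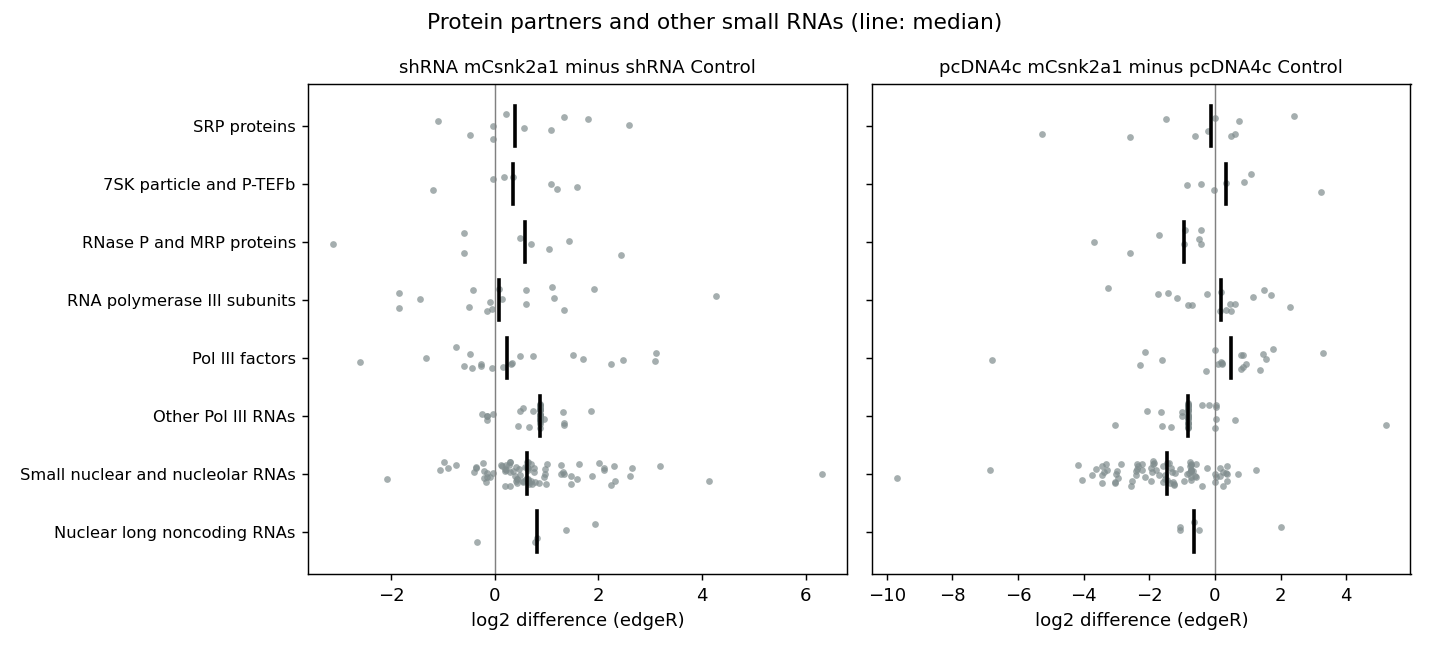
Log2 differences of every tested gene in 8 lists of protein partners and other RNAs, for the Csnk2a1 hairpin on the left and the Csnk2a1 vector on the right, with a bar at each list's median; the horizontal axes differ in range. Small nuclear and nucleolar RNAs lie mostly right of 0 on the left (median 0.62) and mostly left of 0 on the right (median -1.46), and no gene plotted passed at an adjusted p under 0.05.

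The genes most like each RNA over the 12 libraries differed between the RNAs. Likeness was Pearson's r of log2 CPM among 8994 genes averaging at least 20 CPM, and is a description, since all values share library depth and scaling. Rn7s1 was most like mt-Rnr1 (r = 0.96), followed by Gm28438, Atp5mpl and Gngt2 (0.93 to 0.91). Rn7sk was most like the histone gene Hist1h4d (0.92), then Rps23, Rps14, Gm23262 and Pgm2l1 (0.90 to 0.86). Rpph1 was most like Gngt1 (0.90), then Sf3a2, Slc1a3, Arpp19 and Rpl13a (0.89 to 0.86). Rmrp was most like 4 U2 genes with equal values, Rnu2-10, Gm23971, Gm24950 and Gm23849 (0.94), and Rnu12 (0.92), which are RNA parts of the splicing machinery.

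The 4 RNAs were not uniformly alike. Rn7sk and Rpph1 had r = 0.87, Rn7s1 had 0.71 with Rn7sk and 0.70 with Rpph1, and Rmrp had -0.64 with Rn7s1, -0.12 with Rn7sk and -0.033 with Rpph1. Spread within groups also differed, with an SD of Rn7s1 of 2694 CPM in shRNA mCsnk2a1, 345 in shRNA Control, 3909 in pcDNA4c mCsnk2a1 and 1509 in pcDNA4c Control (n = 3 each). For Rmrp the SD was 145, 10.1, 82.8 and 69.5 CPM in the same order, and the shRNA Control libraries had the smallest SD for both.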

How the data were processed

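Total RNA was sequenced in 12 libraries of hand-picked rods, using a stranded SMARTer Pico kit for total RNA and paired ends, per the labels' protocols. Of tools, kallisto 0.45.0 and edgeR 3.28 are named with the build mm10, per the submitters' processing notes. The deposited gene table holds estimated counts for 52962 genes, not normalized between libraries. Checked on 452 genes of 1 transcript, each value equalled TPM times a constant of the gene and a constant of the library, so these counts are scaled from TPM and are not whole. The deposited transcript table holds TPM for 141196 transcripts. The authors' scaled table holds a scaled signal, equal to the gene value times 1 constant per library, and was used for 11 libraries, without pcDNA4c mCsnk2a1 1.

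Counts were rounded and tested with edgeR 4.0.16 (quasi-likelihood, filterByExpr at 10 counts, TMM, 20267 genes) in R 4.3.3, in 1 fit over the 4 groups of 3, with Benjamini-Hochberg adjustment at 0.05. SE is the log2 difference divided by the square root of F. The script was tested on simulated data. Shares and within-library ratios (0.5 counts added) were tested with exact two-sided permutation tests. Alternatives used DESeq2 1.42.0 and limma 3.58.1, other scalings and filters, left-out libraries, and a replicate block. The labels do not say whether same-numbered libraries are paired, and the main fit used no block. Same-numbered libraries of a construct and its control had correlations between -0.0398 and 0.00873 in their deviations from group means. Values near 0 cannot exclude pairing, since each mean rests on 3 libraries of few cells.

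Named genes were all members with values, in each list those past the threshold in any comparison and the 2 with the smallest p per construct, and the 5 genes most like each RNA. Members and lists were chosen with earlier results of these data known. Reads without molecular identifiers are not independent molecules. Some genes that this rule names, and the sequence of 7SL, are not reported here.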

Additional observations from a re-analysis of the deposited data

Results flagged for a closer look

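The ratio of 7SL to mt-Rnr1 counts was lower with the Csnk2a1 hairpin than with its control in every library, by a log2 difference of -0.21, and higher with the Csnk2a1 vector than with its control in every library, by 0.32. The pair was singled out, among all the shares and ratios screened, because the groups moved apart in opposite directions without overlap. With the vector the gap was narrow, since the lowest pcDNA4c mCsnk2a1 ratio was 1.15 and the highest pcDNA4c Control ratio 1.14. Against mt-Rnr2 the 7SL log2 ratio differed by 0.92 with the vector and by -0.010 with the hairpin, where the groups overlapped. The difference between both effects was not tested.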

How the results depend on the processing

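With 3 libraries per group no exact permutation test of a share or ratio can go below p = 0.1, and low messages such as those of the protein partners vary by several fold within groups. With the hairpin the count of genes past the threshold was 0 in the edgeR fit, 183 with DESeq2, 93 without a filter, 2 with limma voom, 8 on the scaled table, and 0 to 4 when a library was left out. With the vector it was 20, then 249, 111, 37, 46, 6 with only the 6 libraries of the comparison, and 14 to 35. For overexpression minus knockdown it was 4, then 209 with DESeq2, 2 with RLE scaling, 2 with scaling without the members and mitochondrial ribosomal RNA, 137 without a filter, 2 with at least 50 counts in 3 libraries, 1 with limma voom, 18 on the scaled table, and 2 to 16. Between the controls it was 14, then 69 with DESeq2, 71 without a filter and 26 on the scaled table. With the replicate block 1 gene passed for the hairpin and 9 for overexpression minus knockdown, and 7SK passed between the controls (0.62, edgeR adjusted p = 0.0458).

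The 7SL difference kept its sign in all alternatives run. With the hairpin it was 0.27 to 0.52 over all alternatives, lowest with library size only, and passed in 2 of them, at 0.45 without a filter and 0.44 on the scaled table. With the vector it was 1.39 with limma voom and 1.23 with only 6 libraries, where it did not pass. Overexpression minus knockdown gave 0.75 without a filter and 0.88 on the scaled table, passing in both. With a library left out it gave 0.62 to 0.87, passing without pcDNA4c mCsnk2a1 1, the library that the scaled table lacks. Between the controls it was 1.16 with limma voom. The 7SK difference between the controls passed at 0.74 with RLE scaling, 0.65 with library size only and 0.63 without a filter. It also passed at 0.64 on the scaled table and at 0.64 in 6 libraries. With a library left out it was 0.52 to 0.69. It passed without shRNA mCsnk2a1 1 or 2, without pcDNA4c mCsnk2a1 1, 2 or 3, and without pcDNA4c Control 2. The edgeR adjusted p-values in those fits lay between 0.000928 and 0.0375. The cause of these changes was not tested.

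Differences near 0 changed sign. For 7SK with the vector the log2 difference was 0.042 with DESeq2, 0.042 with RLE scaling, 0.059 with limma voom, 0.10 on the scaled table, 0.016 in 6 libraries, and -0.12 to 0.12 with a library left out. For RNase P RNA with the vector it was -0.13 with library size only and -0.074 to 0.11 with a library left out. On TPM the share differences turned to -0.851 (7SK, hairpin), 1.13 (7SK, vector), 0.223 (RNase P RNA, vector) and -0.0317 percentage points (RNase MRP RNA, hairpin). Leaving out a library gave -0.000523 to 0.0114 percentage points for RNase MRP RNA with the hairpin and -0.12 to 0.15 for the log2 ratio of 7SL to mt-Rnr2 with the hairpin. The median log2 difference of all genes shifted by scaling to 0.13 between the controls with RLE factors and to -0.30 with the vector with library size only.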
